A study of Mus musculus with 11 samples.

Results

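Eph receptors and ephrins, Slits and Robos, and netrins with their receptors are the families of cell-surface and secreted proteins that steer migrating neurons and growing axons. The members were the loci of the deposited expression table whose symbol names an Eph receptor, an ephrin, Slit1 to Slit3, Robo1 to Robo4, a netrin or netrin-G, an Unc5 receptor, Dcc, Neo1 or an Flrt protein. There were 44 such loci of 24138, matched by name. The list of names was drawn up with earlier results of these data known. The RNA came from cortices of E14.5 mouse embryos. The 2 conditional knockout (cKO) libraries carried both floxed Chd8 alleles (Chd8 c/c) and Emx1-cre. The 3 controls carried floxed alleles with no Cre in their labels: control 1 was labelled Chd8 c/+, and controls 2 and 3 were labelled Chd8 c/c. Chd8 encodes a chromatin remodeller of the CHD family, and Emx1-cre acts in progenitors of the dorsal telencephalon and their progeny, so vessels, microglia and ventrally born interneurons keep the gene. The labels do not say whether a library is 1 embryo or a pool, and p-values then measure only the spread between these libraries, which may be technical.

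Eph receptors are receptor tyrosine kinases that bind ephrins on the next cell. Ephrin-A ligands are held in the membrane by a lipid anchor and ephrin-B ligands span it, so that contact can signal into both cells, often as repulsion. Slits are secreted proteins that repel axons and migrating cells through Robo receptors. Netrin-1 is a secreted cue that attracts growth cones through Dcc and repels them through Unc5 receptors, which also bind the adhesion proteins of the Flrt family. In the embryonic cortex these systems act on radial migration, on the path of thalamic and corticofugal axons, and on the course of interneurons that enter from the ventral telencephalon.

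Values were taken as FPKM from the form of the headers. FPKM are fragments scaled by transcript length and library size, so on that reading levels may be compared between genes. A log2 change is the cKO mean minus the control mean of log2(FPKM + 1), and for genes near 1 FPKM or below it is smaller than the change in FPKM. Means are given ± SD with n = 2 for the cKO and n = 3 for control. Chd8 itself was at 31.5, 30.02 and 31.8 FPKM in controls 1 to 3 and at 19.3 and 15.1 FPKM in cKO 1 and 2. The groups were separate, and the cKO mean was 55.2% of the control mean. One protocol label speaks of Eed as the deleted gene, against Chd8 in the titles and genotypes. Summed FPKM ranged from 418191 to 484296, and sequencing depth is unknown. Marker genes of cortical projection neurons (summed 1591 to 2241 FPKM) and radial glia (1447 to 1973 FPKM) were abundant in every library. Markers of the ventral telencephalon (287 to 677 FPKM) and of the thalamus (24.9 to 160.4 FPKM) were present as well. The 3 controls differed among themselves, and this touches many of the results below.

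No guidance gene passed the test over all loci, and neither did Chd8, the deleted gene. The log2 change of Chd8 was -0.83 (adjusted p = 0.575 in limma; exact permutation p = 0.1). The absence of calls therefore does not show that the guidance genes were unchanged. Of the 44 members, 40 had a mean of at least 1 FPKM and entered the limma test with 12672 loci in all. At an adjusted p under 0.05, 0 members were higher and 0 lower in the cKO, where 0.0158% and 0.0316% of all tested loci were called. At an unadjusted p under 0.05 in limma, Flrt2 and Epha5 were higher (2 of 40, or 5.0%, against 3.08% of all loci) and 0 were lower (against 4.37%). Both cKO libraries lay above every control at 3 members, Flrt2, Epha5 and Neo1, against 13.4% of all loci. They lay below every control at 5 members, Ephb2, Ephb4, Ephb6, Flrt1 and Robo4, against 15.6% of all loci. These shares of members, 7.5% and 12.5%, were no greater than those of all loci. At 20 of the 40 members both cKO values fell inside the range of the controls, against 28.6% of all loci. The median log2 change was -0.11 over the members and -0.02 over all loci. It was -0.02 without control 1 and -0.22 without control 2. A negative log2 change was found at 67.5% of the members and 53.1% of all loci. The counts also rested on single libraries, and the shares of all loci moved with them. Members with both cKO libraries above every control numbered 9 without control 1, 6 without control 2 and 6 without cKO 2, where 27.8%, 18.2% and 21.5% of all loci were above. Members below every control numbered 9, 10 and 9 without controls 1, 2 and 3, where 28.7%, 19.7% and 19.5% of all loci were below. They numbered 12 without cKO 1 and 8 without cKO 2, where 34.6% and 22.0% of all loci were. Unadjusted calls of higher members in limma were 4 without control 1 (8.04% of all loci), 0 without control 3 (1.202%), 1 without cKO 1 (3.94%) and 1 without cKO 2 (1.33%). Unadjusted calls of lower members in limma were 2 without control 1 (7.54% of all loci) and 1 without cKO 1 (7.74%). The log2 change moved by more than 1.5 times, or turned, at 35 of the 40 members when some library was left out. The other 5 were Ephb2, Flrt2, Neo1, Robo4 and Unc5d.

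**Figure D1:**
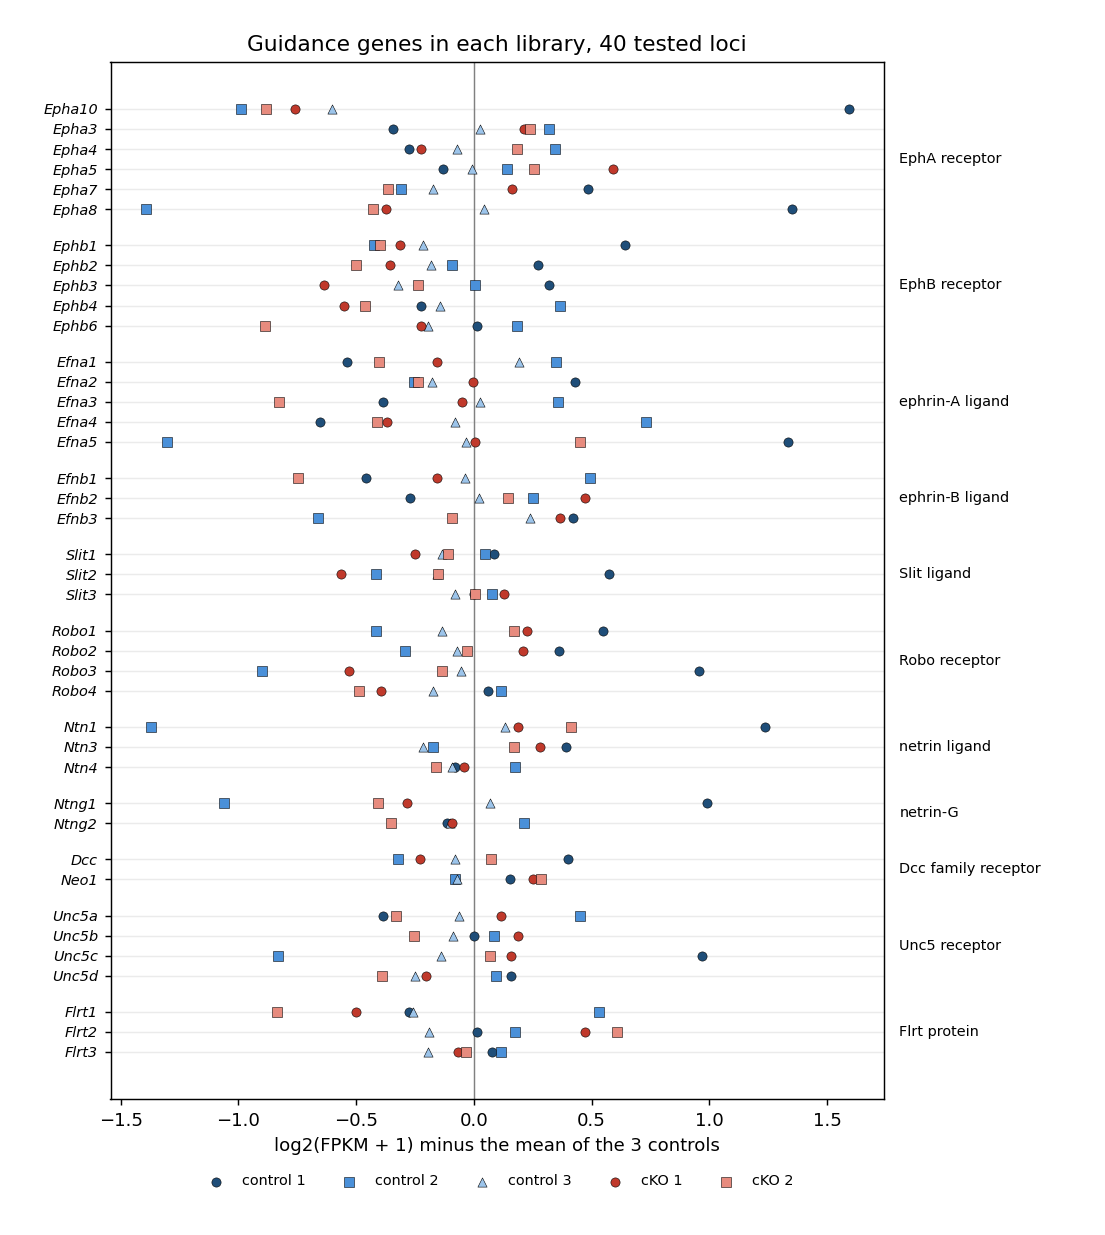
Each row is a tested guidance gene, and each point is a library: its log2(FPKM + 1) minus the mean of the 3 controls, with controls in blue and cKO libraries in red. Control 1 and control 2 lie at opposite ends in many rows, as at Epha8 (10.1 and 0.662 FPKM) and Ntn1 (34.2 and 4.77 FPKM), with the cKO libraries between them.

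All 5 EphB receptors had a lower mean in the cKO, and 3 of them lay below every control in both cKO libraries, though none passed the test. Over all tested loci, 53.1% had a negative log2 change and 15.6% lay below every control. Their summed level was 137, 101 and 93.2 FPKM in controls 1 to 3 and 83.2 and 75.2 FPKM in cKO 1 and 2. Ephb2 (chromosome 4, 136647536 to 136836326 in GRCm38.p6), a receptor with roles in commissural axon pathfinding and later at synapses, had the highest mean of the class. Its level was 52.1, 40.1 and 37.7 FPKM in controls 1 to 3 and 33.3 and 30.1 FPKM in cKO 1 and 2. Both cKO libraries lay below the lowest control. The log2 change of Ephb2 was -0.43 (95% interval -0.87 to 0.02, adjusted p = 0.575 in limma), and an exact two-sided permutation test gave p = 0.2, where 3 against 2 libraries (10 splits) cannot go below 0.1. Ephb4 (chromosome 5, 137350109 to 137374522), the ephrin-B2 receptor of venous endothelium, was at 6.73, 10.64 and 7.18 FPKM in controls 1 to 3 and 5.15 and 5.54 FPKM in cKO 1 and 2. The groups were separate, with control 2 well above the other controls, and the log2 change was -0.51 (95% interval -1.05 to 0.03), or -0.33 without control 2. Ephb6 (chromosome 6, 41603834 to 41620509), a receptor that lacks kinase activity, was at 15.9, 18.1 and 13.7 FPKM in controls 1 to 3 and 13.4 and 8.09 FPKM in cKO 1 and 2. Here cKO 1 lay only just under control 3, so the separation came from cKO 2. The log2 change of Ephb6 was -0.55 (95% interval -1.15 to 0.04), with -0.89 without cKO 1 and -0.22 without cKO 2.

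The other EphB receptors overlapped between groups. Ephb1, a receptor that steers retinal and callosal axons, was at 53.1 FPKM in control 1 and at 24.8 and 28.9 FPKM in controls 2 and 3, against 26.9 and 25.3 FPKM in cKO 1 and 2. Control 1 alone was high, and the log2 change of -0.36 (95% interval -1.18 to 0.47) was -0.04 without it. Ephb3, which acts with Ephb2 in commissural axons, was at 9.61, 7.52 and 5.80 FPKM in controls 1 to 3 and 4.47 and 6.20 FPKM in cKO 1 and 2. Its log2 change was -0.44, with -0.28 without control 1 and -0.24 without cKO 1. In the class as a whole the 5 log2 changes lay between -0.55 and -0.36, with a median of -0.44 beside -0.02 for all tested loci. Each of the 5 kept a negative log2 change under each of the 12 alternative settings. Among these, using the replicate number as a block gave the same log2 changes as leaving out control 3. The summed level of 9 intermediate progenitor markers was also below every control in both cKO libraries, at 344, 849 and 526 FPKM in controls 1 to 3 and 332 and 266 FPKM in cKO 1 and 2, with none of the 9 at 0. That of 12 radial glia markers was 1447, 1973 and 1633 FPKM in controls 1 to 3 and 1496 and 1563 FPKM in cKO 1 and 2, and most of this sum was Vim and Fabp7. Of the 12, 4 lay below every control in both cKO libraries and 1 above, and 3 were lower at an unadjusted p under 0.05 in limma. These 3 were Nes (47.8 ± 10.63 against 87.0 ± 20.2 FPKM), Emx2 (13.7 ± 6.06 against 26.6 ± 5.41 FPKM) and Hes1 (15.8 ± 1.25 against 22.5 ± 3.43 FPKM), while Fabp7 was 748 ± 48.3 against 631 ± 37.1 FPKM. Their part in the EphB values was not tested, and in RNA of whole cortex fewer cells of a type and less RNA per cell cannot be told apart. Endothelial markers (10 genes) summed to between 80.7 and 97.1 FPKM in controls and to 88.1 and 87.3 FPKM in the cKO. Cldn5 was the largest term of that sum, and Egfl7 lay below every control, at 9.33 and 7.97 FPKM in the cKO against 9.48 to 11.9 FPKM. Their part in the Ephb4 values was not tested.

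**Figure D2:**
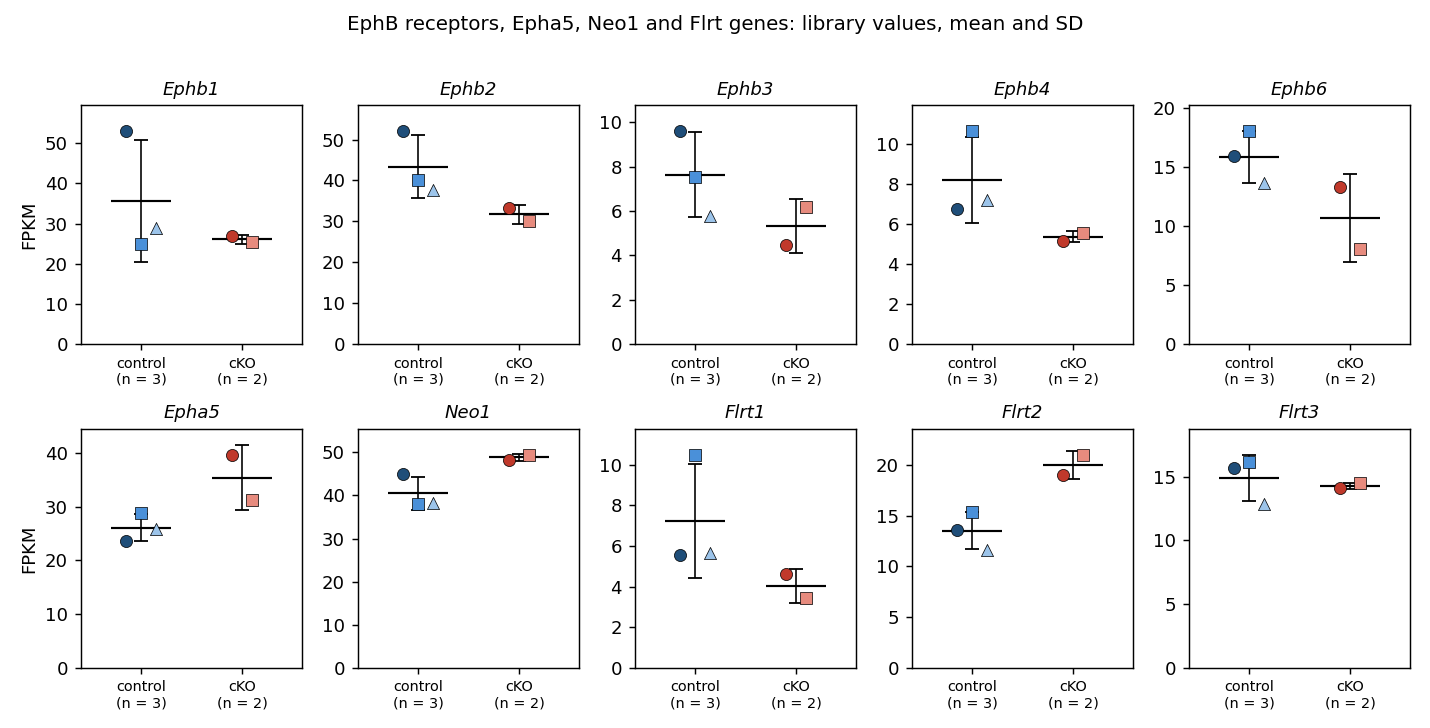
FPKM of the 5 EphB receptors, Epha5, Neo1 and the 3 Flrt genes, with a point per library (controls 1 to 3 in blue, cKO 1 and 2 in red), the group mean as a line and the SD as a bar. Ephb2, Ephb4, Ephb6 and Flrt1 have both cKO libraries below every control, and Epha5, Neo1 and Flrt2 have both above.

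EphA receptors had log2 changes of both signs, and Epha5 was the one with separate groups. Of the 9 loci 6 were tested, 4 with a negative and 2 with a positive log2 change (median -0.06). Epha5 (chromosome 5, 84054761 to 84417818), a receptor of cortical and limbic neurons with roles in topographic mapping, was at 23.7, 28.8 and 25.9 FPKM in controls 1 to 3 and 39.7 and 31.2 FPKM in cKO 1 and 2. Both cKO libraries exceeded every control, cKO 2 by a small margin. The log2 change was 0.42 (95% interval 0.01 to 0.83; p = 0.0449 unadjusted and 0.575 adjusted in limma; exact permutation p = 0.1). The unadjusted p in limma was 0.0980 without control 1, 0.122 without control 3 and 0.220 without cKO 1, where the log2 change was 0.25. The authors' deposited table gave Epha5 a log2 fold change of 0.44 and a q-value of 0.146. Epha4, which binds ephrins of both classes and had the highest mean of the class, was at 38.2, 59.1 and 44.2 FPKM in controls 1 to 3 and 39.6 and 52.9 FPKM in cKO 1 and 2. The cKO values lay inside the control range, with a log2 change of -0.02 (95% interval -0.61 to 0.57). Epha3, a close relative of Epha4 and Epha5 in sequence and ligand choice, was at 37.5 and 38.2 FPKM in the cKO and between 25.2 and 40.4 FPKM in controls. Epha7, whose forms can switch ephrin contact from repulsion to adhesion, was at 10.9 and 7.27 FPKM in the cKO and between 7.60 and 13.9 FPKM in controls.

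Epha8 and Epha10 were lower in the authors' comparison, and these values rested on control 1. In the authors' deposited table, 3 of the 42 members compared had a q-value under 0.05, all lower in the cKO (Epha8, Epha10 and Flrt1), where 3.0% of the loci compared were lower, and 0 members were higher, where 1.21% were. Epha10 (chromosome 4, 124881530 to 124917801), a receptor regarded as lacking kinase activity, had an authors' log2 fold change of -3.15 and a q-value of 0.00331. Its level was 5.52 FPKM in control 1, 0.0894 in control 2 and 0.425 in control 3, against 0.279 and 0.173 FPKM in cKO 1 and 2. Only control 1 stood above 1 FPKM, and the locus reached the minimum for testing through this library alone. Epha8 (chromosome 4, 136929419 to 136956859), a receptor best known from the midbrain, had an authors' log2 fold change of -1.05 and a q-value of 0.0418. It was at 10.1, 0.662 and 3.50 FPKM in controls 1 to 3 and 2.37 and 2.25 FPKM in cKO 1 and 2, so the cKO lay between controls 2 and 3. In limma the log2 change was -0.82 for Epha10 (95% interval -2.82 to 1.18) and -0.40 for Epha8 (95% interval -2.33 to 1.53), with adjusted p = 0.698 and 0.850. Without control 1, the cKO mean was 88.1% of the control mean for Epha10 and 111% for Epha8, and the log2 changes were -0.02 and 0.27. The members below the minimum were low in every library. Epha6 lay between 0.251 and 0.863 FPKM, Epha2 between 0.536 and 1.598, Epha1 between 0.0666 and 0.144, and the netrin Ntn5 was listed at 0 in control 1 and reached 0.155 FPKM in control 2.

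**Figure D3:**
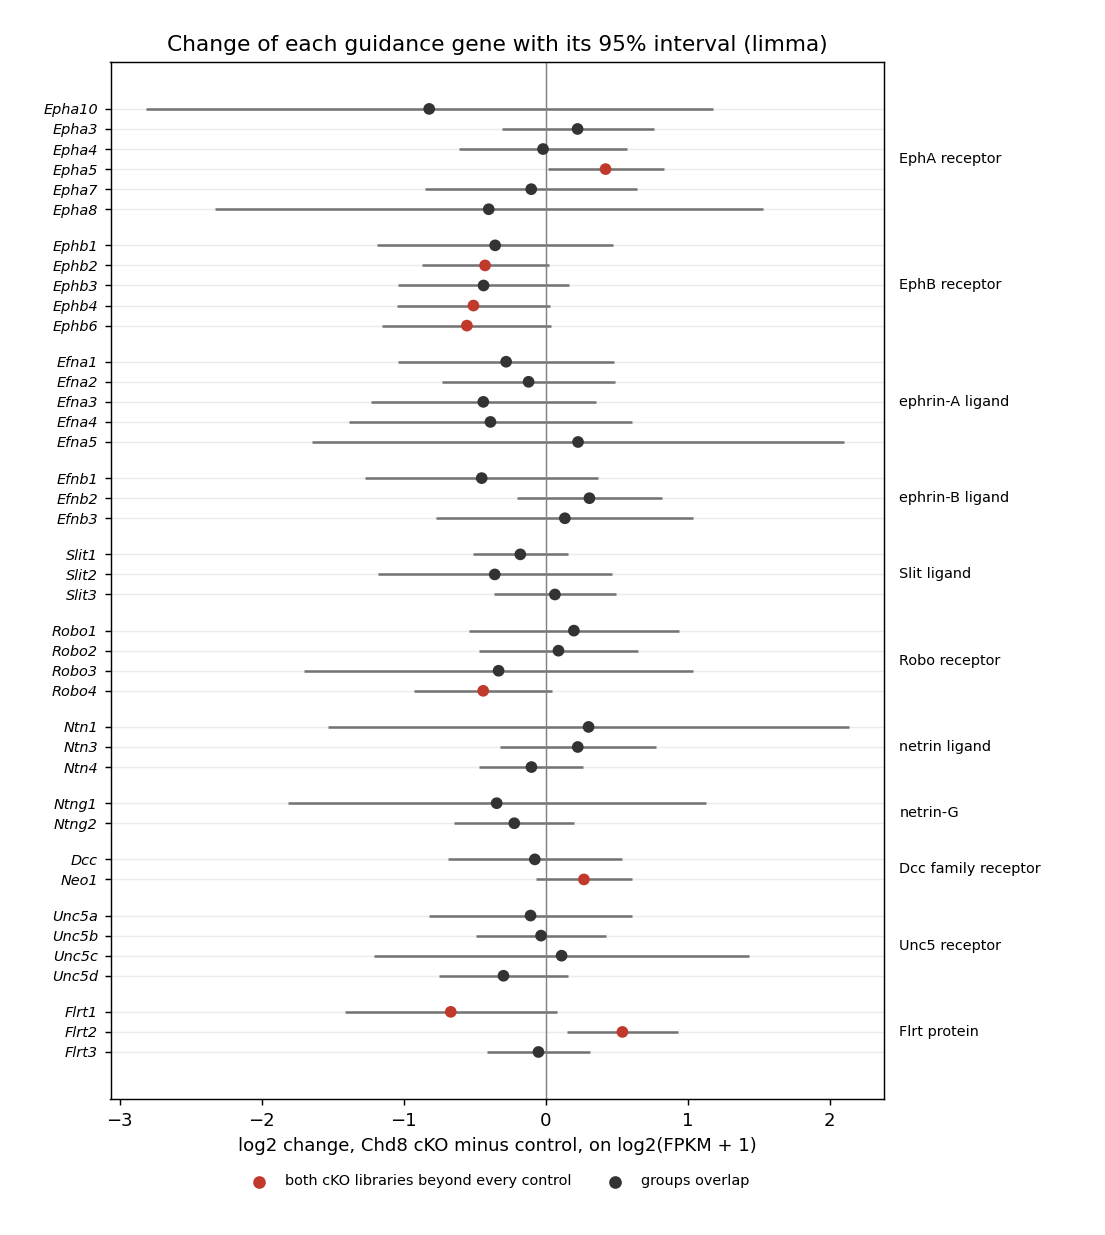
Log2 change of each tested guidance gene, cKO minus control, with the 95% interval from limma as a bar, grouped by family; red points have both cKO libraries beyond every control. The 5 EphB points lie between -0.55 and -0.36, and the intervals of Epha5 (0.01 to 0.83) and Flrt2 (0.15 to 0.93) alone exclude 0.

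No ephrin had separate groups. Among ephrin-A ligands 4 of 5 had a negative log2 change (median -0.28). Efna2, the most abundant of them and a cue in the mapping of visual axons, was at 35.7, 21.9 and 23.1 FPKM in controls 1 to 3 and 26.2 and 22.1 FPKM in cKO 1 and 2, with a log2 change of -0.12. Efna3 was at 17.7, 30.3 and 23.8 FPKM in controls 1 to 3 and 22.5 and 12.7 FPKM in cKO 1 and 2, and Efna4 at 9.19, 25.5 and 14.2 FPKM in controls against 11.4 and 11.04 FPKM. Efna1, a ligand also made by vessels, was between 2.35 and 5.20 FPKM in controls and at 3.37 and 2.68 FPKM in the cKO. These 3 genes, neighbours on chromosome 3, were each highest in control 2 and lowest among controls in control 1. Among ephrin-B ligands, Efnb1 (chromosome X, 99136061 to 99149022), which is made by cortical progenitors, was at 49.8, 97.0 and 66.9 FPKM in controls 1 to 3 and 61.5 and 40.6 FPKM in cKO 1 and 2. Control 2 stood far above the rest, and the log2 change was -0.45 (95% interval -1.27 to 0.37), with -0.20 without control 2 and -0.16 without cKO 2. Control 2 was also the highest control and control 1 the lowest in several marker sums. These were the sums of intermediate progenitors, radial glia, projection neurons, microglia and meninges, and their part in the ephrin values was not tested. Over all tested loci, control 2 was the highest library at 34.8%. Efnb2, the arterial and neuronal partner of Ephb4, was at 44.3, 64.005 and 54.5 FPKM in controls 1 to 3 and 74.7 and 59.5 FPKM in cKO 1 and 2, with a log2 change of 0.31 (95% interval -0.20 to 0.82), or 0.17 without control 1 and 0.15 without cKO 1. Efnb3, a midline barrier for corticospinal axons, was at 75.1, 35.0 and 66.1 FPKM in controls and 72.1 and 52.2 FPKM in the cKO. The log2 change of Efnb3 was 0.14, and -0.20 without control 2.

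Slits and the neuronal Robos differed by less than the spread between controls, while Robo4 was lower in both cKO libraries. Slit1, the Slit most abundant here, was at 28.8, 28.03 and 24.6 FPKM in controls 1 to 3 and 22.6 and 25.05 FPKM in cKO 1 and 2, so cKO 2 fell just above control 3. Its log2 change was -0.18 (95% interval -0.52 to 0.16). Slit2 was at 9.98 FPKM in control 1 and between 3.99 and 5.65 FPKM in the other 4 libraries, and Slit3 lay between 1.93 and 2.38 FPKM in all 5. Robo1 (chromosome 16, 72027518 to 73047491), the receptor through which Slits act on callosal and thalamocortical axons and on interneurons, was at 49.1, 24.7 and 30.1 FPKM in controls 1 to 3 and 39.1 and 37.5 FPKM in cKO 1 and 2. The cKO values lay inside the control range, and the log2 change of 0.20 (95% interval -0.54 to 0.94) was 0.47 without control 1 and -0.01 without control 2. Robo2, its partner in forebrain tract formation, was between 19.8 and 31.7 FPKM in controls and at 28.4 and 23.9 FPKM in the cKO. Robo3, which lets commissural axons cross the midline, was at 5.91, 0.907 and 2.43 FPKM in controls 1 to 3 and 1.47 and 2.24 FPKM in cKO 1 and 2. Robo4 (chromosome 9, 37401902 to 37414023), an endothelial Robo, was at 2.27, 2.39 and 1.78 FPKM in controls 1 to 3 and 1.39 and 1.24 FPKM in cKO 1 and 2. Both cKO libraries lay below every control, with a log2 change of -0.44 (95% interval -0.93 to 0.05; adjusted p = 0.575 in limma; exact permutation p = 0.1). The endothelial marker sums of the cKO, given with Ephb4, lay inside the control range. Cldn5 was the largest term of those sums, and Egfl7 lay below every control. The part of these markers in the Robo4 values was not tested.

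Netrin-1 and most of its receptors varied more between controls than between groups. Ntn1 (chromosome 11, 68209364 to 68386826) was at 34.2, 4.77 and 15.4 FPKM in controls 1 to 3 and 16.02 and 18.9 FPKM in cKO 1 and 2. Both cKO values sat inside the control range, and the log2 change of 0.30 (95% interval -1.53 to 2.13) became -0.38 without control 2 and 0.92 without control 1. Ntn4, a netrin of basement membranes, was between 8.51 and 10.5 FPKM in controls and at 8.88 and 8.09 FPKM in the cKO. The locus of Ntn3 was joined with Tbc1d24, and that of Ntng2 with 6530402F18Rik, so these values cannot be given to a single gene. The Ntn3 locus was between 12.8 and 20.03 FPKM in controls and at 18.5 and 17.04 FPKM in the cKO. The Ntng2 locus, named for a netrin-G that is anchored in the membrane and binds a postsynaptic partner, was at 55.4, 69.9 and 56.01 FPKM in controls 1 to 3 and 56.3 and 46.9 FPKM in cKO 1 and 2, with a log2 change of -0.22. Ntng1, its relative on thalamocortical axons, was at 6.34, 0.775 and 2.88 FPKM in controls and 2.04 and 1.79 FPKM in the cKO.

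Among netrin receptors, Neo1 was higher in both cKO libraries and the others overlapped. Neo1 (chromosome 9, 58874679 to 59036614) encodes neogenin, the Dcc relative that also binds repulsive guidance molecules. It was at 45.01, 38.1 and 38.3 FPKM in controls 1 to 3 and 48.2 and 49.4 FPKM in cKO 1 and 2. The groups were separate by a small margin over control 1, with a log2 change of 0.27 (95% interval -0.07 to 0.61; adjusted p = 0.575 in limma). Dcc was at 33.0, 19.6 and 23.3 FPKM in controls 1 to 3 and 20.99 and 26.1 FPKM in cKO 1 and 2, inside the control range. Of the Unc5 receptors, Unc5a was the most abundant, at 12.4, 22.9 and 15.7 FPKM in controls and 18.0 and 12.9 FPKM in the cKO (log2 change -0.11). Unc5d, a receptor of multipolar and upper-layer cells and a partner of Flrt2, was between 4.98 and 6.93 FPKM in controls and at 5.18 and 4.43 FPKM in the cKO. Unc5b, which is also an endothelial receptor, was between 4.82 and 5.58 FPKM in controls and at 6.05 and 4.20 FPKM in the cKO. Unc5c was at 4.82, 0.674 and 1.70 FPKM in controls and 2.32 and 2.12 FPKM in the cKO.

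The Flrt proteins, adhesion molecules that bind Unc5 receptors and latrophilins, gave both the smallest p among the members and log2 changes of both signs. Flrt2 (chromosome 12, 95692006 to 95785215), a repellent of cells that carry Unc5d, was at 13.6, 15.3 and 11.7 FPKM in controls 1 to 3 and 19.1 and 21.02 FPKM in cKO 1 and 2. Both cKO libraries exceeded every control, and the means were 20.1 ± 1.37 against 13.5 ± 1.84 FPKM. The log2 change was 0.54 (95% interval 0.15 to 0.93; p = 0.0151 unadjusted and 0.575 adjusted in limma; exact permutation p = 0.1). The adjusted p ranged from 0.237 to 0.999 over the alternatives. The unadjusted p was 0.0647 without control 3 and 0.0847 without cKO 2. The authors' deposited table gave Flrt2 a log2 fold change of 0.57 and a q-value of 0.0514. Flrt1 (chromosome 19, 7087464 to 7166183) was at 5.56, 10.5 and 5.63 FPKM in controls 1 to 3 and 4.62 and 3.44 FPKM in cKO 1 and 2. Both cKO libraries lay below every control, and control 2 was far above the other controls. The log2 change was -0.67 (95% interval -1.42 to 0.08; adjusted p = 0.575 in limma), or -0.40 without control 2, while the authors' deposited table gave -0.84 with a q-value of 0.0121. Flrt1 lies inside Macrod1 (chromosome 19, 7056728 to 7198062), which encodes a mitochondrial macrodomain enzyme, and the strand setting of the counting is not given in the sources used here. Macrod1 was at 4.18, 6.04 and 3.79 FPKM in controls 1 to 3 and 3.63 and 2.25 FPKM in cKO 1 and 2. Its libraries were ordered nearly as those of Flrt1, and whether the loci share reads was not tested. Flrt3, which guides thalamic axons with Robo1 and lies inside Macrod2, was between 12.9 and 16.2 FPKM in controls and at 14.1 and 14.47 FPKM in the cKO, a log2 change of -0.05.

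Marker sums of some other cell types were higher in the same libraries as Flrt2, Epha5 and Neo1. The 14 markers of the ventral telencephalon and interneurons summed to 375, 287 and 494 FPKM in controls 1 to 3 and 605 and 677 FPKM in cKO 1 and 2. Of the 14, 9 lay above every control in both cKO libraries and 0 below, where 13.4% of all tested loci lay above and 15.6% below. The 12 microglia markers summed to between 33.1 and 50.9 FPKM in controls and to 106 and 102 FPKM in the cKO, with 10 of the 11 tested above every control. The sum of 10 projection neuron markers was not higher in both cKO libraries, at 2162 and 1591 FPKM against 1793 to 2241 FPKM in controls. Of these 10, 2 lay above every control in both cKO libraries (Tbr1 and Bcl11b) and 0 below. The 6 pericyte markers summed to 31.1, 24.7 and 25.1 FPKM in controls 1 to 3 and 34.6 and 41.5 FPKM in cKO 1 and 2, with 4 of the 5 tested above every control in both cKO libraries. Rgs5 was the largest term of the pericyte sum, at 23.4 ± 5.71 in the cKO against 13.5 ± 2.24 FPKM in control. Pdgfrb was not higher, at 4.99 ± 0.564 against 5.38 ± 1.09 FPKM (log2 change -0.08). The 7 Cajal-Retzius markers summed to 101 and 86.4 FPKM in the cKO, inside the control range of 51.4 to 189 FPKM. Of the 7, Lhx1, Lhx5 and Ebf3 had negative log2 changes (-1.29, -1.13 and -0.72), while 3 lay above every control in both cKO libraries. Reln, the secreted glycoprotein of these cells, was at 54.9 and 55.0 FPKM in the cKO and between 24.8 and 28.9 FPKM in controls, and the others were Ndnf and Trp73. None of these markers was at 0 in every library, and their part in the values of the 3 genes was not tested.

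The sequence before the start of members with separate groups is shown for a reader who wants to look for shared elements. The RefSeq promoter table gives 250 bases before a transcript start, and that start can lie inside the locus of the gene: 24 of the 43 windows of members reached into it. Only bases outside the locus are printed, which leaves 250 for Ephb4, 180 for Robo4, 77 for Neo1 and 30 for Flrt2. The windows of Epha5, Ephb2 and Ephb6 lay wholly inside their loci. Sequences are from RefSeq on GRCm38.p6, written 5′ to 3′ on the strand of the gene, with the E-box hexamer CANNTG in capitals. The E-box is the letter pattern that proneural basic helix-loop-helix proteins such as Neurog2 can bind, and it reads the same on both strands. The stretches are chr5:137349859-137350108 (plus strand) for Ephb4, chr9:37401722-37401901 (plus) for Robo4, chr9:59036615-59036691 (minus) for Neo1 and chr12:95691976-95692005 (plus) for Flrt2.
Ephb4: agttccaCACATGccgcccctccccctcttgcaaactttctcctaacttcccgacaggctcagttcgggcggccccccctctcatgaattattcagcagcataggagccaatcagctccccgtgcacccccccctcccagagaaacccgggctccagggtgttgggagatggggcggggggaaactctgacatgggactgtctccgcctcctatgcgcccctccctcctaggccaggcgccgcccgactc
Robo4: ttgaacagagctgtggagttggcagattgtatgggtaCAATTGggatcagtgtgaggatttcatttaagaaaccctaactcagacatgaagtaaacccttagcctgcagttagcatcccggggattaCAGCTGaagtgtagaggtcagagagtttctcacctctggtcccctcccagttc
Neo1: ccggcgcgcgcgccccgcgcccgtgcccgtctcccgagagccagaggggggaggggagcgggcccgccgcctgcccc
Flrt2: ccgagtctctctcggaaagcgcgccactgg
Robo4 held 2 hexamers, Ephb4 held 1, and Neo1 and Flrt2 held 0 in the bases printed. The whole windows held 2 for Flrt2 and Robo4, 1 each for Ephb2, Ephb4 and Ephb6, and 0 for Epha5 and Neo1. No window was available for Flrt1. Over whole windows of 250 bases, an E-box was in 46.5% of the 43 windows of the 38 members that the table holds and in 66.2% of all 32851 windows. The windows of the members were richer in G and C, with a median of 64.4% against 52.4%, and held a median of 16 CpG dinucleotides against 6. These are matches of letters, not sites of binding.

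The widest spread of guidance genes was among the controls. The highest control was at least 2 times the lowest at 12 of the 40 members, against 1899 of the 12672 loci. At 10 of these, control 1 was the highest of all 5 libraries and control 2 the lowest control, a pattern of the controls held by 7.49% of all tested loci. The 10 were the receptors Epha8, Epha10, Ephb1, Robo3 and Unc5c, and the ligands Efna5, Efnb3, Slit2, Ntn1 and Ntng1. Epha10 reached the minimum for testing through control 1 alone, so its place among them follows from the filter. Efna5, an ephrin that sets area borders and repels thalamic axons, was at 11.95, 1.08 and 4.02 FPKM in controls 1 to 3 and 4.15 and 6.02 FPKM in cKO 1 and 2. Over the 40 members control 1 was the highest library at 20, control 2 at 14 and control 3 at 0, against 24.1%, 34.8% and 5.69% of all loci. Markers of other regions differed in the same libraries. The 5 thalamic markers summed to 160.4 FPKM in control 1 against 24.9 and 41.2 FPKM in controls 2 and 3 and 30.6 and 30.3 FPKM in cKO 1 and 2. Tcf7l2, a transcription factor of the thalamus, was at 78.5 FPKM in control 1 and between 2.48 and 11.5 FPKM elsewhere. Lhx9, a thalamic homeobox gene, was at 43.0 FPKM in control 1 and between 6.94 and 9.17 FPKM elsewhere. Gbx2, another thalamic homeobox gene, was at 2.92, 0.0458 and 4.16 FPKM in controls 1 to 3 and so was not highest in control 1. The 7 Cajal-Retzius markers summed to 189 FPKM in control 1 and between 51.4 and 101 FPKM elsewhere. The excess lay in Ebf3 (75.5 FPKM in control 1), Lhx5 (33.3) and Lhx1 (30.9), while Trp73 was lowest in control 1 (2.33 FPKM) and Reln and Ndnf were highest in the cKO. No marker of these lists was at 0 in every library, and their part in the 10 genes was not tested. Control 1 is also the control labelled Chd8 c/+, so its genotype and its library cannot be told apart. Without control 1 the cKO means were 173% of the control mean for Ntn1, 199% for Efna5 and 187% for Unc5c, where with it they were 96.4%, 89.5% and 92.4%.

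**Figure D4:**
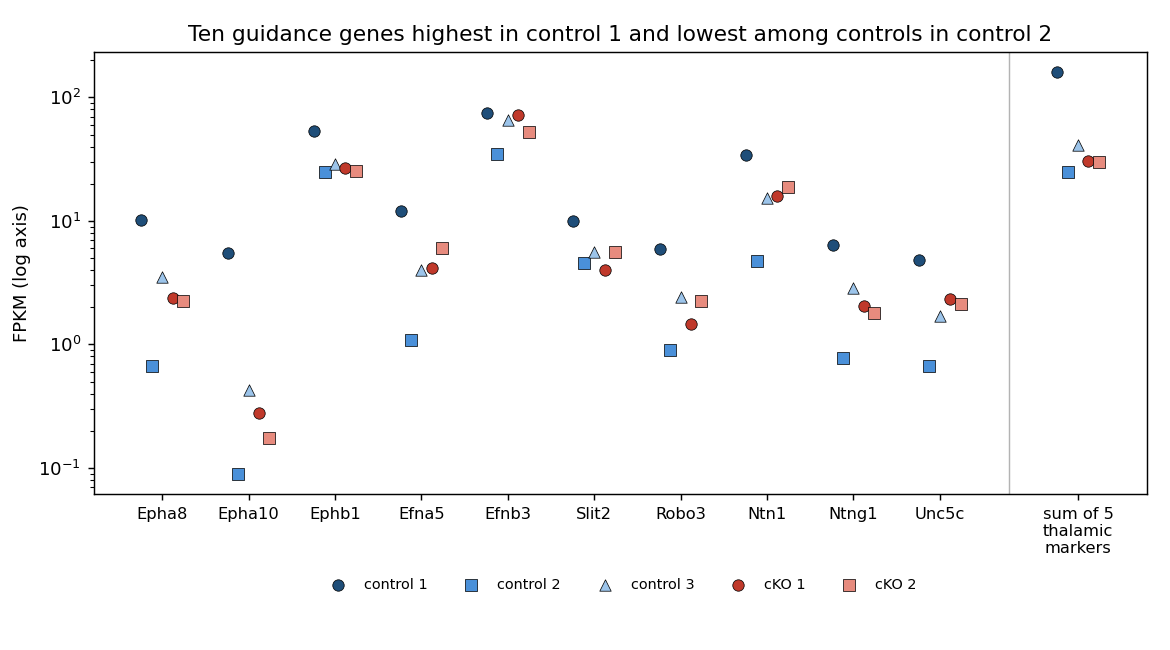
FPKM per library on a log axis for the 10 guidance genes with control 1 highest and control 2 lowest of the controls, and for the sum of 5 thalamic markers at the right. Control 1 (dark blue circle) tops every column, and the cKO libraries lie below it, as at Ntn1 (16.02 and 18.9 against 34.2 FPKM).

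Genes that act with these receptors and ligands showed no call over all loci, where Chd8 itself was not called either. At an unadjusted p under 0.05 in limma, 3.08% of all tested loci were higher and 4.37% lower. Of 36 Eph signalling genes tested, 0 passed the adjusted test, and 0 were higher and 2 lower at that unadjusted threshold. Their median log2 change was 0.03. Rgs3, whose PDZ form binds ephrin-B tails, was 4.36 ± 0.266 in the cKO against 6.12 ± 0.709 FPKM in control (log2 change -0.41), and Anks1, an adaptor that binds Eph receptors, was 19.5 ± 0.706 against 24.8 ± 2.01 FPKM (-0.33). The phosphatase gene Ptprf was 43.6 ± 3.92 against 58.7 ± 8.76 FPKM, and Rasa1, a Ras GTPase-activating protein recruited by Ephb2, was 30.3 ± 0.778 against 24.7 ± 1.32 FPKM. Of 32 Slit-Robo signalling genes tested, 0 passed the adjusted test, 1 was higher and 0 lower at the unadjusted threshold, with a median of 0.02. Hs2st1, a heparan sulfate sulfotransferase, was 30.4 ± 1.597 against 24.1 ± 1.32 FPKM (log2 change 0.32). The cytoskeletal GTPase genes Rac1 (152 ± 20.8 against 120.2 ± 7.51 FPKM) and Cdc42 (234 ± 17.1 against 176 ± 31.0 FPKM) and the myosin gene Myo9b (15.4 ± 0.431 against 19.5 ± 3.002 FPKM) followed by p.

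Of 30 netrin signalling genes tested, 0 passed the adjusted test and 1 was higher at the unadjusted threshold in limma, against 3.08% of all tested loci. Their median log2 change was 0.06. Elmo1, a partner of the Rac activator Dock1, was 24.3 ± 4.13 against 15.98 ± 3.91 FPKM (log2 change 0.59). Rgma, a ligand of Neo1, was 43.5 ± 3.96 in the cKO against 62.5 ± 13.5 FPKM (log2 change -0.50). Siah1a, a ubiquitin ligase that acts on Dcc, was 28.5 ± 5.80 against 21.5 ± 1.49 FPKM (log2 change 0.38). Of the 13 netrin-G and Flrt partners tested, 0 passed either threshold, with a median of -0.20. The lowest p belonged to Fgfr1, a receptor that Flrt proteins bind (23.1 ± 1.95 against 32.8 ± 8.14 FPKM), and to the teneurin gene Tenm4 (15.8 ± 1.99 against 23.6 ± 7.78 FPKM). The latrophilin genes followed. Adgrl3 was 18.2 ± 3.20 against 12.8 ± 7.42 FPKM, and Adgrl1 was 68.6 ± 20.3 against 80.9 ± 9.99 FPKM.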

How the data were processed

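Per the file headers, the authors deposited a value for each locus in each library and for each group as a mean. The values were taken as FPKM from the form of the headers, and whether the authors scaled them further is not stated. Their comparison of the groups, also deposited, has a q-value, a p-value, a statistic (a score) and a log2 fold change for each locus. Of the tools in the submitters' processing notes (CASAVA, TopHat, Cufflinks, Bowtie2, MACS), neither roles nor versions are given, and the build named there is mm10. FPKM carries no counts: among values under 0.05 FPKM, between 21.03% and 56.02% of loci lay within 0.15 log2 units of the commonest ratio to control 1, whole reads were not recovered, and no count test was run. Groups came from the sample titles. Loci whose mean over all 5 libraries reached 1 FPKM were compared as log2(FPKM + 1), using limma 3.58.1 under R 4.3.3 and its trend option, with 3 residual and 2.49 prior degrees of freedom, and Benjamini-Hochberg adjustment over all 12672 loci. Simulated data with known changes were also passed through the fit, without the pseudocount. That run checked the mean estimates, not error rates or power in these data. Single members also had an exact permutation test over libraries.

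The members and lists were chosen with earlier results of these data known. Values in every library were given for members past either p threshold, with a q-value under 0.05 in the authors' table, with separate groups and an absolute log2 change of at least 0.3, or with the highest mean of their class, and for others as the text required. Up to 4 genes with the smallest p are named per pathway list, and 1 of these is not reported here. The marker list of the meninges summed to 4.41, 27.1 and 5.66 FPKM in controls 1 to 3 and 7.89 and 5.55 FPKM in cKO 1 and 2. Positions and sequences came from RefSeq on GRCm38.p6, to which mm10 corresponds, and all 44 members were matched by symbol. The alternatives were another pseudocount (0.1), no filter, a mean of at least 5 FPKM, rescaling to equal sums (TPM) or by the median ratio, array weights, the replicate number as a block, and leaving out each library. ATAC-seq data from 6 further samples were not analysed here.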

Additional observations from a re-analysis of the deposited data

How the results depend on the processing

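No member passed the adjusted threshold in limma under any of the 12 alternatives, and Chd8 did not pass it either. Of the 40 tested members, 24 kept their direction under each alternative in which they were tested, among them the 5 EphB receptors, Epha5, Neo1, Flrt1, Flrt2 and Robo4. After rescaling to equal sums (TPM), 6 of the 40 members had both cKO libraries above every control, against 12.9% of all loci. In that setting 1 of the 40 was lower at an unadjusted p under 0.05 in limma, against 4.27% of all loci. Without a filter 1 of 44 was lower, against 3.57% of all loci. The log2 change turned to 0.0383 for Epha4, 0.00336 for Flrt3 and 0.0148 for Unc5b after the rescaling to equal sums. With array weights, whose estimate did not fully converge, it turned to 0.0321 for Epha4, 0.0463 for Epha7, 0.11 for Flrt3, 0.0391 for Unc5b, 0.0287 for Efna2 and -0.0496 for Efnb3. The cause was not tested. With the replicate number as a block, 0 members were higher at an unadjusted p under 0.05 in limma (0.892% of all loci). Number 3 held only a control, so the block gave the same log2 changes as leaving out control 3. Its directions, none of which turned, are therefore not a separate check. The deviations of same-numbered libraries correlated at -0.07 for number 1 and -0.11 for number 2. With 2 cKO libraries, the deviations of cKO 2 are those of cKO 1 with the sign turned, so these values cannot decide on pairing. The numbers were not taken to pair the libraries in the main test. Leaving out each library in turn gave 0 to 4 higher and 0 to 2 lower members at an unadjusted p under 0.05, 3 to 9 members above and 8 to 12 below every control, and a median of -0.22 to -0.02. It turned the direction of 16 members and of Adgrl1, whose log2 changes ranged from -0.24 to 0.12 for Dcc, -0.37 to 0.16 for Epha7, -1.10 to 0.27 for Epha8, -0.78 to 0.15 for Robo3, -0.25 to 0.0944 for Efna2, -0.87 to 0.15 for Ntng1, -0.22 to 0.19 for Epha4, -0.15 to 0.00791 for Flrt3, -0.00807 to 0.47 for Robo1, -0.0556 to 0.27 for Robo2, -0.33 to 0.12 for Unc5a, -0.25 to 0.19 for Unc5b, -0.30 to 0.60 for Unc5c, -0.42 to 0.90 for Efna5, -0.20 to 0.36 for Efnb3, -0.38 to 0.92 for Ntn1 and -0.56 to 0.0426 for Adgrl1. Where 1 cKO library was left, it was assumed to vary like the controls. The number of libraries limits the precision: the 95% interval of Ntn1 ran from -1.53 to 2.13.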

Other observations

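Several members are neighbours in the genome, and neighbours did not always share a pattern. Efna1, Efna3 and Efna4 lie in a row on chromosome 3, with 32.9 and 10.5 kb between them and no other protein-coding gene, and all 3 were highest in control 2. Robo4 and Robo3 lie 2.02 kb apart on chromosome 9. Robo3 was highest in control 1 (5.91 FPKM) and lowest in control 2 (0.907 FPKM), while Robo4 was highest in control 2 (2.39 FPKM) and low in the cKO libraries (1.39 and 1.24 FPKM). Ephb2 and Epha8 lie 93.1 kb apart on chromosome 4. Both were highest in control 1, at 52.1 and 10.1 FPKM, but Ephb2 was lowest in cKO 2 (30.1 FPKM) and Epha8 in control 2 (0.662 FPKM). Robo1 and Robo2, 844 kb apart on chromosome 16, had the same order of controls, with control 1 highest and control 2 lowest.

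By level, the members with the highest mean over the 5 libraries were Efnb1, Efnb3, Efnb2 and the Ntng2 locus. The mean over 5 libraries was 63.2 FPKM for Efnb1, 60.1 for Efnb3 and 59.4 for Efnb2, against 46.8 for Epha4, the Eph receptor with the highest mean. The order differed between libraries: in control 1 Ephb1 (53.1 FPKM) exceeded Efnb1 (49.8 FPKM), and in control 2 Epha4 (59.1 FPKM) exceeded Efnb3 (35.0 FPKM). All members together made up between 0.173% and 0.213% of the summed FPKM of a library, with the highest share in control 1.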
